A study of Homo sapiens with 2 samples.

Results

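The sites described here are the crosslink sites that the deposited list of METTL14 in HepG2 cells places on human chromosome 19. They were taken as every row of chromosome 19 except those whose middle base lay from 24182000 to 24187000, where a single crowded locus would outweigh the rest. This left 352 of the 404 rows on the chromosome and of the 5981 rows in the list. The nearest remaining sites on either side of that stretch were at 22882330 and 24361012. Coordinates are 1-based on hg19, the build named in the submitters' processing notes.

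The assay was PAR-CLIP, in which cells take up 4-thiouridine, long-wave UV light crosslinks it in RNA to bound protein, and crosslinked uridines are read as C in place of T. The single group, HA-METTL14, had 2 libraries, replicates 1 and 2, from HepG2, an established human hepatocellular carcinoma line. The cells stably carried METTL14 from a lentiviral pLJM1 vector, with an HA tag at its N terminus and EGFP at its C terminus, and were selected with puromycin and sorted for high GFP. They received 200 µM 4-thiouridine for 16 h and 3 exposures to 365 nm light of 0.15 J/cm2. RNA was trimmed with RNase T1 in the lysate at 0.2 U/µL and again on HA beads at 10 U/µL. Both libraries thus carry METTL14 from an added, tagged copy. Its level against the native protein was not measured here, and no group without the tagged protein was analysed.

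METTL14 is the RNA-binding partner of METTL3 in the nuclear complex that writes N6-methyladenosine into RNA, mostly while transcripts are being made. Chromosome 19 has more protein-coding genes for its length than any other human chromosome. Much of it is made of clusters of KRAB zinc finger genes, which arose by tandem duplication and encode repressors of transposable elements, and these clusters alternate with stretches of short, broadly active genes. In GENCODE 29, 249 of the 502 autosomal protein-coding genes with a ZNF number as symbol lie on it, 49.6%.

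With 1 row per site for both libraries together, the spread between replicates could not be measured. Intervals are at 95% and cover the counting of sites only, and read depth is unknown. Tests take sites or loci as independent, although sites of 1 transcript are linked. Counts per bin also varied more than counting alone gives, so the intervals and p-values of densities understate the error. Neither input RNA nor expression was analysed here, so more sites and more RNA from a place cannot be told apart.

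Chromosome 19 was the autosome with the most sites per Mb. It held 5.87 sites per Mb (exact Poisson interval 5.27 to 6.51) over its 60 bins of 1 Mb. Chromosome 17 followed with 4.44 (3.99 to 4.92), the other 21 autosomes had a median of 1.64, and chromosome 13 was lowest with 0.809. Assembly gaps were not left out of these lengths on any autosome. The intervals of chromosomes 19 and 17 did not overlap. Chromosome 19 also led when sites of 1 strand no more than 1 kb apart were counted once, as a locus: it had 312 loci, 5.20 per Mb, and chromosome 17 had 3.65. Neighbouring sites were a median of 61.4 kb apart on chromosome 19 and 132 kb apart on the other autosomes.

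Set against the number of genes, chromosome 19 no longer led. Chromosome 19, with 1472 protein-coding genes, had 0.239 sites per gene (0.215 to 0.265). This was the next to lowest value of the 22 autosomes, above chromosome 15 with 0.198 (0.164 to 0.237) and below the median of 0.290 of the other 21. Chromosome 17 had 0.307 sites per gene (0.276 to 0.340), an interval wholly above that of chromosome 19. Gene density, at 24.5 genes per Mb of site bins against 14.5 on chromosome 17, thus rose further from chromosome 17 to chromosome 19 than site density did. The crowded locus was left out on chromosome 19 only, where it held 52 rows, and the other autosomes kept theirs. With that locus kept, chromosome 19 had 404 rows, so its value per gene would be higher and its rank could rise. Values per gene with all autosomes treated alike were not computed, so the next to lowest rank holds for these counts only.

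**Figure D1:**
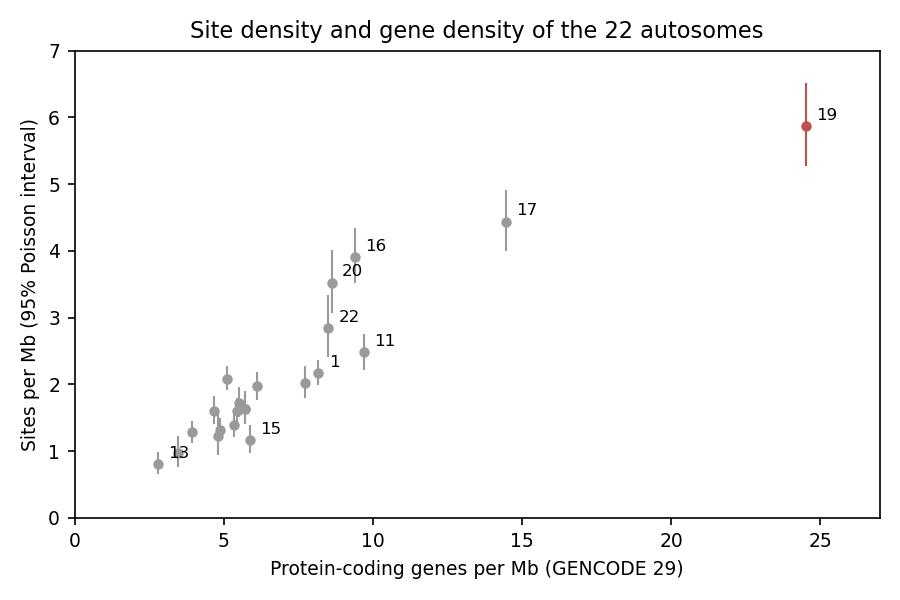
Sites per Mb (vertical axis, bars are 95% exact Poisson intervals) against protein-coding genes per Mb (horizontal axis) for the 22 autosomes, with chromosome 19 in red and some others numbered. Chromosome 19 is highest on both axes, at 24.5 genes and 5.87 sites per Mb, and chromosome 17 comes next at 14.5 and 4.44.

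Along the chromosome the sites were uneven but present nearly everywhere. Only 6 of the 60 bins, 10%, held no site, the lowest share among the autosomes, where chromosome 17 came next with 19.5%. The empty bins started at 23, 25, 26, 27, 31 and 37 Mb, and those at 25 and 26 Mb lie inside the assembly gap of the centromere. The widest stretch without a site, 3.71 Mb from 24361012 to 28070771, spans that gap. The variance of sites per bin was 4.11 times the mean (interval 2.95 to 6.11), where sites placed at random would give about 1. This placed chromosome 19 ninth from the highest of 22, and the median of the others, 3.98, lay inside its interval. The others kept their crowded loci, however, and with the excluded stretch kept the value was 8.996 (6.46 to 13.4), an interval wholly above that median. Counted as loci the value was 3.45, number 10 from the highest, and the median of the others was 3.27.

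The 5 fullest bins lay at the end of the short arm, further in on that arm, and in the middle and outer part of the long arm. The bin from 1 to 2 Mb led with 24 sites, 10 plus and 14 minus, with scores from 3 to 16. Next came the bin from 42 to 43 Mb with 18 sites, 9 on each strand, and the bin from 18 to 19 Mb with 15 sites, 7 plus and 8 minus. The bins from 0 to 1 Mb and from 50 to 51 Mb held 14 sites each, with 9 plus and 5 minus in both. Their summed scores were 154 and 89. These 5 bins held 85 sites, 24.1% of the 352. In all, 12 bins had at least 10 sites and held 161 sites together, 45.7%, while the median bin held 5.

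Crowded bins were built from many separate places rather than from a few tight groups. The 24 sites of the bin from 1 to 2 Mb formed 22 loci, and the 14 sites of the bin from 0 to 1 Mb formed 11. Of the 312 loci of the chromosome, 284 were single sites, 20 held 2 sites, 4 held 3 and 4 held 4. No group reached 5 sites. This was partly set by the rule, which had left out the crowded locus with its 52 rows.

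**Figure D2:**
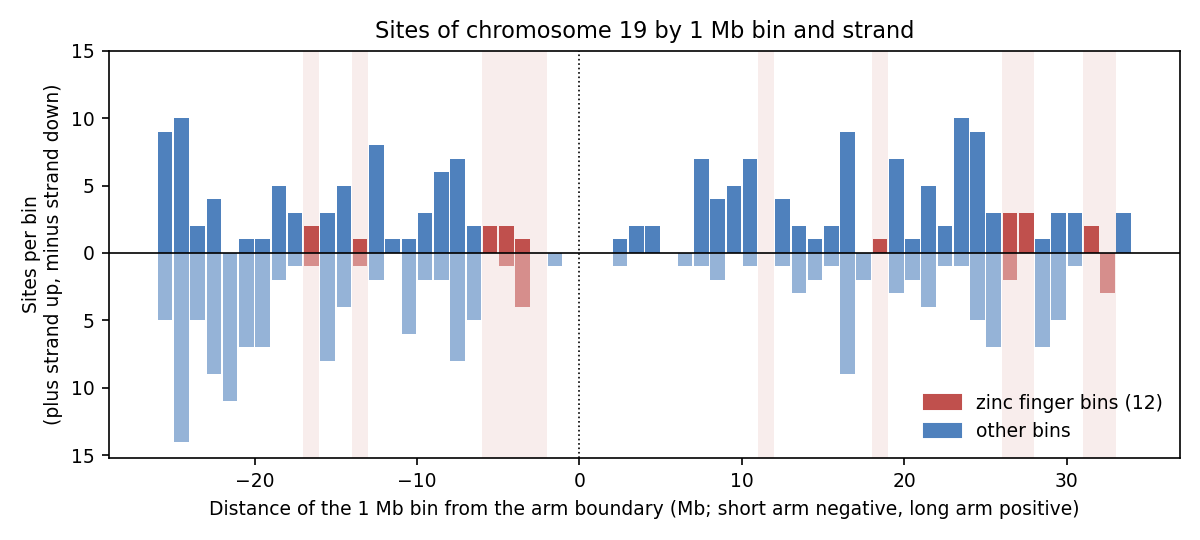
Sites per 1 Mb bin of chromosome 19 (plus strand upward, minus strand downward and paler) against the distance of the bin from the arm boundary at 26 Mb, short arm at negative values. The 12 zinc finger bins, shaded and red, hold 0 to 5 sites each, while the fullest bin, near the end of the short arm, holds 24.

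The short arm carried more sites than the long arm. Its 25 bins held 185 sites in 163 loci, 6.52 loci per Mb (5.56 to 7.60), and the 33 bins of the long arm held 167 sites in 149 loci, 4.52 per Mb (3.82 to 5.30). The density of the long arm was 0.693 times that of the short arm (0.551 to 0.870, two-sided exact binomial test p = 0.00133, Benjamini-Hochberg adjusted p = 0.00248 over 6 tests). Genes did not level this: the short arm had 638 protein-coding genes and 0.290 sites per gene (0.2497 to 0.335), and the long arm 834 genes and 0.200 (0.171 to 0.233). Counted as loci per gene, the short arm had 1.43 times the value of the long arm (1.14 to 1.80, exact p = 0.00165, adjusted p = 0.00248). Both tests assume a variance equal to the mean, but that of loci per bin was 3.45 times the mean. Their intervals are therefore too narrow and their p-values too small, and no test that allows for this was run. In these counts the long arm lay close to the lowest of the other autosomes, chromosome 15. The short arm lay at their median, but only with the 52 rows of the excluded stretch, which lay on this arm, left out. The other autosomes kept their crowded loci, so the place of the short arm among them is not shown.

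The zinc finger stretches held few sites. They were taken as 7 stretches of whole Mb on hg19, 12 Mb in all, whose bounds come from general knowledge of the chromosome and could not be checked against an hg19 annotation. On GRCh38, where positions differ, the bins of the same numbers held 164 ZNF genes among 281 protein-coding genes, 58.4%, and the other bins 85 among 1191, 7.14%. Those bins had 23.4 protein-coding genes per Mb, and the other bins 25.9.

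On these 12 Mb lay 29 sites in 25 loci, 2.08 loci per Mb (1.35 to 3.08), against 323 sites in 287 loci on the other 46 Mb, 6.24 per Mb (5.54 to 7.004). The density was 0.334 times that of the rest (0.213 to 0.503, exact binomial p = 1.72e-09, adjusted p = 1.03e-08). All 12 zinc finger bins held 5 sites or fewer, with a median of 2.5. Of the other 46 bins, 26 held at least 6, with a median of 7. The deficit was present on both arms: the ratio was 0.229 (0.112 to 0.422, exact p = 1.09e-08, adjusted p = 3.27e-08) on the short arm and 0.467 (0.248 to 0.811, exact p = 0.00394, adjusted p = 0.00473) on the long arm. The intervals of these ratios overlap, and the difference between the arms was not tested. As for the arms, these tests assume a variance equal to the mean, so their intervals are too narrow and their p-values too small. With the stretches moved up by 0.5 Mb, a setting added after the data were seen, the ratio was 0.629 (0.447 to 0.868), and with a wider set of 20 bins it was 0.490 (0.367 to 0.648). Genes of 1 cluster are near copies of each other, and how the authors placed reads with several matches is not stated. The part of this in the counts was not tested.

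All 7 stretches had few sites. The stretch from 9 to 10 Mb held 3 sites, at 9534051 on the minus strand with a score of 50 and at 9546215 and 9960331 on the plus strand with scores of 6 and 5. The stretch from 12 to 13 Mb held 2 sites, at 12724641 and 12841768, with scores of 5 and 9. The largest cluster of the short arm, from 20 to 24 Mb, held 10 sites in 6 loci, and its last Mb was empty.

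On the long arm the stretch from 37 to 38 Mb was empty (exact Poisson interval 0 to 3.69 sites per Mb), and that from 44 to 45 Mb held 1 site, at 44674229 with a score of 6. The stretch from 52 to 54 Mb, with 8 sites, was the fullest per Mb at 4 (1.73 to 7.88). Its 8 sites were 8 separate loci, 6 of them on the plus strand, with scores from 3 to 24. The stretch from 57 to 59 Mb held 5 sites with scores from 3 to 10. Each of the 7 intervals is wide, so the stretches cannot be ordered among themselves. Those from 9 to 10 Mb (0.619 to 8.77), 12 to 13 Mb (0.242 to 7.22) and 52 to 54 Mb include the 7.02 of the other bins. Taken singly, these stretches therefore do not show a deficit.

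Where zinc finger stretches did have sites, their scores were not lower. The deposited score is the authors' whole number per site, of at least 3, with no unit given. The median was 8 over the 29 sites and 5 over the other 323. A score of at least 14 was reached by 10 of 29, 34.5% (Wilson interval 19.9 to 52.7%), against 62 of 323, 19.2% (15.3 to 23.8%). On the short arm 53.3% (30.1 to 75.2%) of 15 zinc finger sites reached it, and 15.3% (10.7 to 21.5%) of 170 others. On the long arm 14.3% (4.01 to 39.9%) of 14 zinc finger sites did, and 23.5% (17.5 to 30.8%) of 153 others, intervals that overlap. Over both arms the difference was 15.3 percentage points (Newcombe interval 0.0212 to 33.9).

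This difference rested on 1 group of sites. The stretch from 20 to 24 Mb had 7 of the 10 high scores, and 4 of these lay within 39 nt on the minus strand, at 22877620, 22877623, 22877657 and 22877658, with scores of 35, 214, 191 and 601. Without that group the difference was 4.80 points (-8.53 to 24.6), an interval that includes 0. A further pair in this stretch, at 21830281 and 21830288 on the plus strand, had a score of 151 at both sites. At this distance 1 read can cover both.

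**Figure D3:**
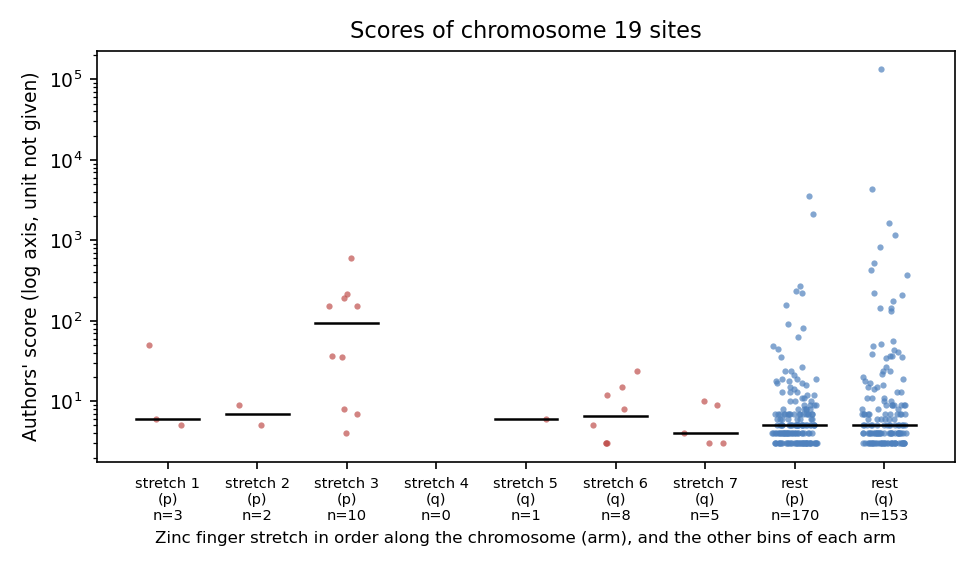
The authors' score of each site (log axis) in the 7 zinc finger stretches, in order along the chromosome, and in the other bins of each arm. Black lines are medians; the stretch from 20 to 24 Mb (stretch 3, 10 sites) has a median of 93.5, and the other bins of each arm have a median of 5.

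Whether the plus share differed from 50% turned on the lowest score kept. Of all 312 loci, 167 were on the plus strand, 53.5% (47.98 to 58.98%, exact binomial p = 0.234, adjusted p = 0.234). With only scores of 5 or more kept, 60% of loci were plus (52.8 to 66.8%, exact p = 0.00795, not adjusted). The arms differed. On the short arm 73 of 163 loci were plus, 44.8% (37.4 to 52.5%), and on the long arm 94 of 149, 63.1% (55.1 to 70.4%). The difference was -18.3 percentage points (Newcombe interval -28.7 to -7.23), a comparison made after the bins had been seen. The interval takes loci as independent, but 38.5% of them lay in series of at least 5 consecutive loci on 1 strand. It is therefore too narrow. Of the protein-coding genes, 48.1% were on the plus strand on the short arm (44.3 to 51.996%) and 50.96% on the long arm (47.6 to 54.3%), intervals that overlap.

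Part of this lay in 1 long run, a run being a series of consecutive loci on the same strand. The longest run held 21 loci (25 sites), all on the minus strand, from 3544830 to 5294595, a span of 1750 kb. No run on another autosome was as long; the longest there held 16 loci, on chromosome 8. Protein-coding genes of chromosome 19 also had the highest mean same-strand run of the 22 autosomes, 2.33 genes, and their longest run held 17. Whether the runs of sites follow those of genes was not tested. Leaving out the run of 21 loci, which was picked for its strand, brought the plus share of the short arm to 51.4% (43.3 to 59.5%). The difference between the arms was then -11.7 points (-22.6 to -0.322). Long runs of the long arm were kept, and this interval too takes loci as independent, so it does not settle whether the arms differ.

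Inside that run, 8 sites lay within 8.63 kb on the minus strand, from 3976735 to 3985370, with no plus-strand site between them. Their scores ran from 3 to 155, at 3979408, with a median of 9.5. This was the largest chain of same-strand sites of chromosome 19 with steps up to 10 kb, singled out after the values were seen. The next held 5 sites over 13.1 kb on the plus strand, from 33685180 to 33698291, with scores from 3 to 18. The whole bin from 4 to 5 Mb, which the run covers, held 11 sites and 0 on the plus strand.

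The next longest run held 11 loci (14 sites) on the plus strand over 736 kb, from 49425823 to 50161671, with a highest score of 371 at 49993304. The one after it held 8 loci on the plus strand over 260.0 kb, from 13005059 to 13265063, with scores from 4 to 24. Runs of this length were few. The 312 loci made 126 runs, with a mean of 2.48 loci (SE 0.219 over runs), and 59 runs held 1 locus. On the other autosomes 1924 runs had a mean of 2.34 (SE 0.0420), less than 1 SE of the chromosome 19 mean away. Runs of at least 5 loci held 38.5% of the loci of chromosome 19 and 30.3% of those elsewhere.

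**Figure D4:**
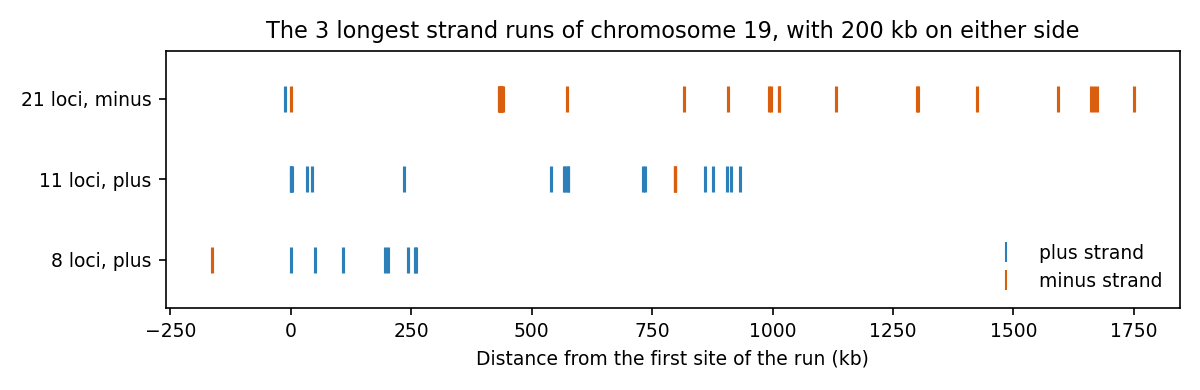
Positions of sites in the 3 longest strand runs of chromosome 19, with 200 kb on either side, as distance from the first site of each run in kb. Each tick is a site, blue on the plus and orange on the minus strand; the run of 21 loci extends over 1750 kb with minus-strand sites only.

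One-sided bins were about as common as elsewhere. Of the 30 bins of chromosome 19 with at least 5 loci, 11 had at least 80% of their loci on 1 strand, 36.7% (21.9 to 54.5%). On the other autosomes 75 of 239 such bins did, 31.4% (25.8 to 37.5%). The difference was 5.29 points (-10.7 to 23.9), an interval that includes 0. Of the 11 bins, 3 adjoined each other from 4 to 7 Mb, with 23 of 25 loci on the minus strand, and 3 more lay from 35 to 39 Mb, around the empty bin that starts at 37 Mb, with 15 of 17 on the plus strand.

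Neighbouring sites shared a strand most often when close. All 18 neighbouring pairs within 100 nt shared a strand, as did 22 of 23 beyond 100 nt and up to 1 kb. The share was 48 of 61 from 1 to 10 kb, 78.7% (66.9 to 87.1%), and 85.5% (82.2 to 88.4%) on the other autosomes. From 10 to 20 kb it was 15 of 25 on chromosome 19, 60% (40.7 to 76.6%), and 75% (68.6 to 80.4%) elsewhere. From 20 to 50 kb it was higher again on chromosome 19, 23 of 33 pairs or 69.7% (52.7 to 82.6%), and 62.5% (57.7 to 67.1%) elsewhere. From 50 to 100 kb it was 55.8% (42.3 to 68.4%) and 55.3% (50.8 to 59.8%), and from 100 kb to 1 Mb 52.7% (44.2 to 61.02%) and 51.4% (49.2 to 53.6%). The interval of the difference includes 0 in each of the 7 distance classes.

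Taken up to 10 kb, 88 of 102 pairs shared a strand on chromosome 19, 86.3% (78.3 to 91.6%), against 92.6% (91.1 to 93.9%) of 1355 pairs elsewhere. The difference was -6.35 points (-14.4 to -0.765). The other autosomes still held their crowded loci, however. Without loci of at least 5 sites on any autosome the others had 91.3% of 1027 pairs, and the difference was -5.06 points (-13.2 to 0.630), an interval that includes 0. From 10 to 100 kb the shares were 60.9% (51.6 to 69.5%) of 110 pairs and 61.7% (58.8 to 64.6%) of 1077, a difference of -0.836 points (-10.6 to 8.25). A shorter reach of strand sharing on chromosome 19 was therefore not shown, although its protein-coding genes start a median of 23.2 kb apart, the shortest spacing of the 22 autosomes, against a median of 54.7 kb over the others.

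**Figure D5:**
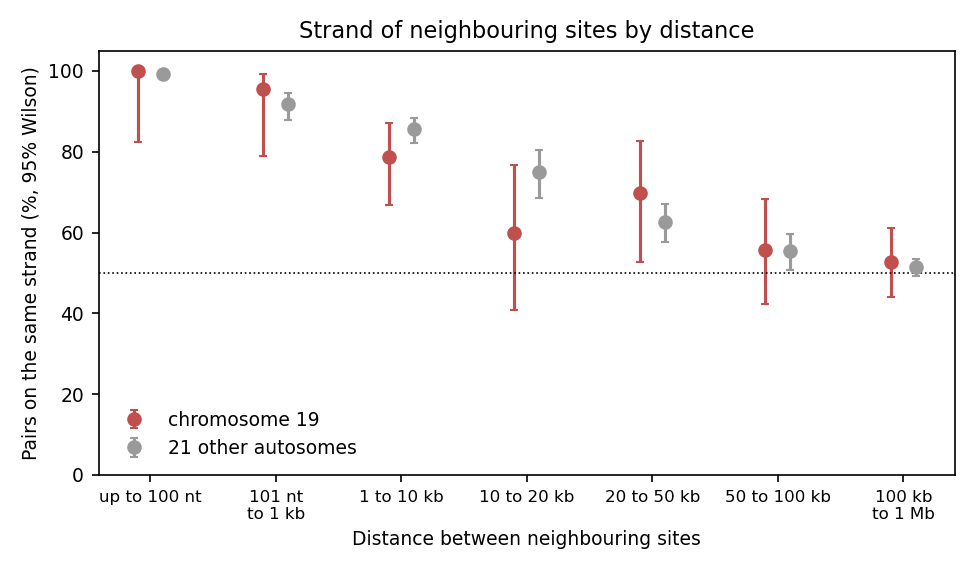
Share of neighbouring site pairs on the same strand (vertical axis, bars are 95% Wilson intervals) by the distance between them, for chromosome 19 (red) and the 21 other autosomes (grey); the dotted line is 50%. Both are near 100% in the closest and near 50% in the farthest class, with a rise on chromosome 19 at 20 to 50 kb, and the intervals overlap in all 7 distance classes.

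Most scores on chromosome 19 were low, and 1 site carried most of the sum. The quartiles of the 352 scores were 4, 5 and 10, and 81 sites, 23.01% (18.9 to 27.7%), had the lowest score of 3. On the other autosomes the quartiles were 3, 5 and 13, and 26.5% (25.3 to 27.7%) had a score of 3. A score of at least 14 was reached by 72 sites, 20.5% (16.6 to 24.98%), against 24.2% (23.03 to 25.3%) of 5332 sites elsewhere. The difference was -3.70 points (-7.76 to 0.960), and without loci of at least 5 sites on any autosome it was 0.117 points (-3.93 to 4.77). The arms had the same median of 5, with high scores at 18.4% of short-arm and 22.8% of long-arm sites, a difference of -4.38 points (-12.9 to 4.05).

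The highest score, 132733, was at 36066620 on the plus strand and made up 86.3% of the summed score of the 352 sites. It was a lone site, 28520 nt from the nearest other site of the 352. The 4 sites next in score were 4390 at 54158382 on the minus strand, 3531 at 8373755 and 2133 at 6587482, both on the plus strand, and 1653 at 55390062 on the minus strand. Only 6 sites reached 1000. None of these 5 leading sites lay in a zinc finger stretch.

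Of these 5, those at 54158382 and 55390062 belonged to tight groups. The first group had 4 minus-strand sites within 73 nt, at 54158310, 54158321, 54158352 and 54158382, and its scores of 5, 52, 48 and 4390 put nearly all of the sum on its last base in genome order. The second had 4 minus-strand sites within 46 nt, at 55390048, 55390050, 55390062 and 55390093, with scores of 515, 1159, 1653 and 19. A group of 4 minus-strand sites from 18390047 to 18391079 was of another kind, spread over 1033 nt with scores of 3, 3, 4 and 6. High scores thus occurred both in tight groups and alone.

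Tight grouping went with higher scores. Of the 352 sites, 23 had a same-strand neighbour within 30 nt, 6.53% (4.39 to 9.61%), and these had a median score of 52 against 5 for the other 329. A score of at least 14 was reached by 14 of the 23, 60.9%, and by 58 of the 329, 17.6%, a difference of 43.2 points (22.7 to 60.6). Since such sites can share reads and the list starts at a score of 3, the measures are linked through the list itself. On the other autosomes 12.6% (11.7 to 13.5%) of sites had such a neighbour, and the difference of chromosome 19 from them was -6.05 points (-8.38 to -2.85). Without loci of at least 5 sites on any autosome, the others had 9.20% (8.43 to 10.0%) and the difference was -2.67 points (-4.97 to 0.505), an interval that includes 0.

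Crowded bins were not bins of high scores. The 161 sites in bins of at least 10 had a median score of 5, as did the 191 sites in the other bins. High scores made up 16.1% of the former and 24.1% of the latter, a difference of -7.93 points (-16.1 to 0.560), an interval that includes 0.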

How the data were processed

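The 2 PAR-CLIP libraries of HA-METTL14 in HepG2 cells share 1 deposited site list. FastQC 0.11.5, cutadapt 1.13, Bowtie 1.1.2 and hg19 are given per the submitters' processing notes. Site names carry the caller rbsSeeker, per the file's name column; nothing on its settings, threshold or pooling is given in the sources used here. The authors deposited 1 score per site, a whole number of at least 3, taken only as a rank or filter within the list. Each interval was 201 nt and its middle base was taken as the site.

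GENCODE 29 is on GRCh38, where the last protein-coding gene of chromosome 19 ends at 58573575; 4 sites lay beyond it. Sites were therefore not joined to genes or sequence, and region, base and motif shares were not run. Gene counts, arms, strands and spacing came from GENCODE 29 alone, and genes were put on an arm by their GRCh38 start.

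Bins of 1 Mb ran from 0 to the last with a site; arms were split at 26 Mb, and the bins from 25 to 27 Mb were left out of arm and stretch lengths. The zinc finger bins start at 9, 12, 20 to 23, 37, 44, 52, 53, 57 and 58 Mb. Same-strand sites with gaps up to 1 kb were 1 locus, placed at its first site. Densities were compared with two-sided exact binomial tests, adjusted over 6 tests, and shares with Newcombe intervals (Python 3.11.15, scipy 1.17.1, statsmodels 0.14.6). Functions were tested on simulated data. Named regions were the 5 fullest bins, empty bins, the 5 highest scores, the 3 longest runs, each zinc finger stretch and groups of at least 5 sites within 1 kb; groups of 4 and chains within 10 kb were added after values were seen. The members, stretches and tests were chosen with earlier results of these data known.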

Additional observations from a re-analysis of the deposited data

How the results depend on the processing

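Of 70 values recomputed over 14 results, 48 kept their direction and side of the threshold, or stayed in the interval reported; 21 settings were added after the data were seen. The ratios of the zinc finger stretches (0.310 to 0.629) and of the long arm (0.625 to 0.724), and the strand difference between arms, kept theirs under every setting reported. That strand difference was chosen after the bins had been seen and was not reported with the excluded stretch kept. Its intervals take loci as independent, so these settings do not settle whether the arms differ. With scores of at least 5 there were 3.43 sites per Mb, a variance of 2.87 times the mean and 60% of loci on the plus strand (exact p = 0.00795). With the excluded stretch kept these were 6.73, 8.996 and 53.5%, and 15.6% of sites had a neighbour within 30 nt, 3.01 points above other autosomes. The score difference was then 6.48 points for zinc finger stretches and 4.31 against other autosomes, and the strand sharing difference within 10 kb -3.08. Counting loci in place of sites gave 5.20 per Mb, 77.4% of pairs within 10 kb on 1 strand, -4.38 points from other autosomes, and 4.84 points for zinc finger scores. That last difference was 7.90 with wider stretches and 4.80 without the group of 4 at 22877620. A score limit of 5 gave 0.683 points from other autosomes, and leaving out dense loci 0.117 for score, -5.06 for strand sharing and -2.67 for near neighbours. Strand sharing was 97.6% within 1 kb, and 3.41% of sites had a neighbour within 10 nt. Where a call changed, the cause was not tested. No paired analysis was possible because there is only 1 group, and no replicate could be left out since both libraries share 1 list. Depth is unknown, so absence of a site does not show absence of binding.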
